A study of Mus musculus with 2 samples.

Results

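Cluster 13 of the hepatic CD8αβ T cells was described here, a group of mouse liver T cells carried here under the working name central memory, which the deposited tables do not give and which was checked against their genes. Its members were all annotated cells with the deposited cell type name for CD8αβ T cells and the deposited cluster number 13. The rule found 315 cells, 177 from TG mice and 138 from WT mice, among 1839 CD8αβ T cells and 11929 annotated CD45+ liver cells. TG is the dnTGFβRII mouse, whose T cells express a dominant negative form of TGF-β receptor type II from the mouse CD4 promoter. Such mice are used to model primary biliary cholangitis, an autoimmune disease of the small bile ducts. WT is the C57BL/6 wild type, the strain that the labels also give for the TG mice. Both groups were 10 weeks old per the labels. Transcripts were counted as unique molecular identifiers (UMIs), and surface proteins were read on the same cells with oligonucleotide-tagged antibodies.

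Each genotype was measured in 1 library, so no difference between TG and WT was tested, and genotype and library cannot be told apart. The TG library also held cells of IFN-γ ARE-Del-/- mice, and the WT library also held cells of P40-/-IL-2Ra-/- mice, which were not annotated. The number of mice behind each genotype was not given in the sources used here. The clusters were drawn from the same genes that are compared below, so differences between cluster 13 and other clusters are descriptions and carry no test.

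Central memory CD8 T cells are antigen-experienced cells that recirculate through blood, lymph nodes and tissues and divide again on a new encounter with antigen. They are kept alive by IL-7 and IL-15, which they receive through CD127 (encoded by Il7r) and CD122 (encoded by Il2rb). In mice they carry high CD44 and Ly6C, retain the transcription factor TCF-1 (Tcf7), and hold little of the granzyme load of effector cells. A pool with a similar phenotype can also arise without foreign antigen, and whether the members belong to it was not tested.

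The 177 TG cells of cluster 13 held 968903 UMIs with a median of 5485 per cell, and the 138 WT cells held 483559 UMIs with a median of 3418. Levels are given as counts per 1000000 (CPM) of the UMIs summed over a group of cells, with exact 95% Poisson intervals. Shares carry Clopper-Pearson intervals and ratios carry exact conditional binomial intervals. All of them cover counting error only, since there is no replicate library. The mature B cells of the same genotype served as the reference for RNA found in cells that should not make a T cell transcript. No barcode was shared between the TG and the WT cells of cluster 13 (0 barcodes), which says little at this number of cells. Over all called cells 267 barcode numbers were in both libraries, against 273 expected by chance. Scrublet called 1 TG and 4 WT members as doublets. Mixed cells, in which B lineage genes and T lineage genes each had 2 UMIs or more, made up 23 of the 177 TG members (13%) and 3 of the 138 WT members (2.17%).

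Cluster 13 took nearly the same share of the CD8αβ T cells in both genotypes. It was 17.4% in TG (95% interval 15.1 to 19.8%) and 16.8% in WT (14.3 to 19.6%), a difference of 0.503 percentage points with an interval from −2.99 to 3.93. The clusters around it did not keep this balance. Cluster 4, which held the highest Lef1, Actn1 and Ccr7 of the 6 clusters, made up 14.2% of TG and 44.3% of WT CD8αβ cells, and cluster 12, which held the highest Klrg1 and Cx3cr1, made up 24.4% and 8.91%. Among all T cells cluster 13 was 8.31% in TG and 3.31% in WT, and among all annotated cells it was 3.81% and 1.9%, so the near equality holds for the CD8αβ denominator and not for these.

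**Figure D1:**
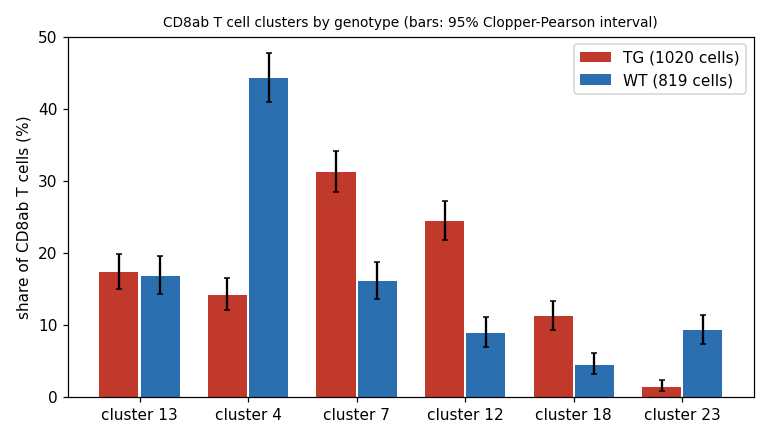
Share of each of the 6 CD8αβ clusters among CD8αβ T cells (percent, vertical axis) in TG (1020 cells) and WT (819 cells); bars carry 95% Clopper-Pearson intervals. Cluster 13 stands at 17.4% and 16.8%, while cluster 4 is at 14.2% and 44.3%.

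The transcripts used as markers of the cluster were Gzmm, Itm2a, Ctla2a and Tnfsf8, chosen with earlier results of these data known. All 4 were at least 2-fold higher in cluster 13 than in the other CD8αβ cells in both libraries. Over all counted genes 5.26% in TG and 4.5% in WT were. That choice made the outcome likely beforehand, so it is a description only. Gzmm encodes granzyme M, a serine protease of cytotoxic granules, and lies at chr10:79689020-79695261 (GRCm38, plus strand). Its level was 568 CPM (521 to 617) in TG cluster 13, 152 in TG cluster 4 and 9.72 to 61.3 in TG clusters 7, 12, 18 and 23. In WT it was 80.7 CPM (57.4 to 110) in cluster 13, 1.91 in cluster 4 and 0 to 36.4 in the other clusters. B cells held 2.38 CPM in TG and 3.62 in WT. Gzmm thus stood highest in cluster 13 in each library, at levels that differed between the libraries by 2.82 on the log2 scale (2.35 to 3.32). The cluster 4 levels differed in the same direction and by more, so higher Gzmm in TG was not particular to cluster 13.

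Itm2a, which encodes an integral membrane protein expressed in activated T cells, was at 143 CPM in TG and 147 in WT cluster 13, against 41.3 and 36.4 in the other CD8αβ cells together. Ctla2a, which encodes a cysteine protease inhibitor related to the cathepsin propeptide, was at 428 CPM in TG and 194 in WT, against 95.1 and 77.5. Tnfsf8, the gene of CD30 ligand, was at 124 and 88.9 CPM, against 33.2 and 29.1. The log2 ratio of cluster 13 over the other CD8αβ cells was 1.80 and 2.01 for Itm2a, 2.17 and 1.33 for Ctla2a, and 1.9 and 1.61 for Tnfsf8, in TG and WT respectively. Cluster 23 of the TG library, 15 cells, held Tnfsf8 at 170 CPM and Ctla2a at 340 CPM, so neither was restricted to cluster 13. Against cluster 4, 1 of the 4 markers (Gzmm) was at least 2-fold higher in TG and 3 of 4 in WT, against 5.76% and 6.44% of all counted genes. The TG ratios to cluster 4 were 0.50 (0.09 to 0.93) for Itm2a, 0.80 (0.55 to 1.07) for Ctla2a and 0.09 (−0.32 to 0.51) for Tnfsf8, so Tnfsf8 did not separate the clusters in TG.

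The markers were found in a larger share of TG than of WT cells. At least 1 UMI of Gzmm was found in 85.3% of TG members (79 to 90%) and 16.7% of WT members, of Ctla2a in 79.7% and 38.4%, of Itm2a in 44.1% and 34.1%, and of Tnfsf8 in 43.5% and 23.9%. In B cells the highest of these shares was 3.82%. In WT 37.7% of the members held no UMI of any of the 4 genes, against 2.26% in TG. TG members held more UMIs per cell. After each cell was thinned to 1000 UMIs the share with Gzmm was 39.5% in TG and 5.80% in WT. The share with none of the 4 was then 25.4% and 64.5%. The WT shares also moved with the level of CD8b protein described below. Among members with a CD8b level of 1 or above, Gzmm was found in 90.4% of TG and 26.2% of WT cells, Ctla2a in 80.8% and 50%, Itm2a in 47.4% and 45.2%, and Tnfsf8 in 44.2% and 22.6%. The WT share of Tnfsf8 was 25.9% below that level, so it did not rise with CD8b. In TG cluster 4 the shares were 36.6% for Gzmm, 49.7% for Ctla2a, 32.4% for Itm2a and 39.3% for Tnfsf8.

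**Figure D2:**
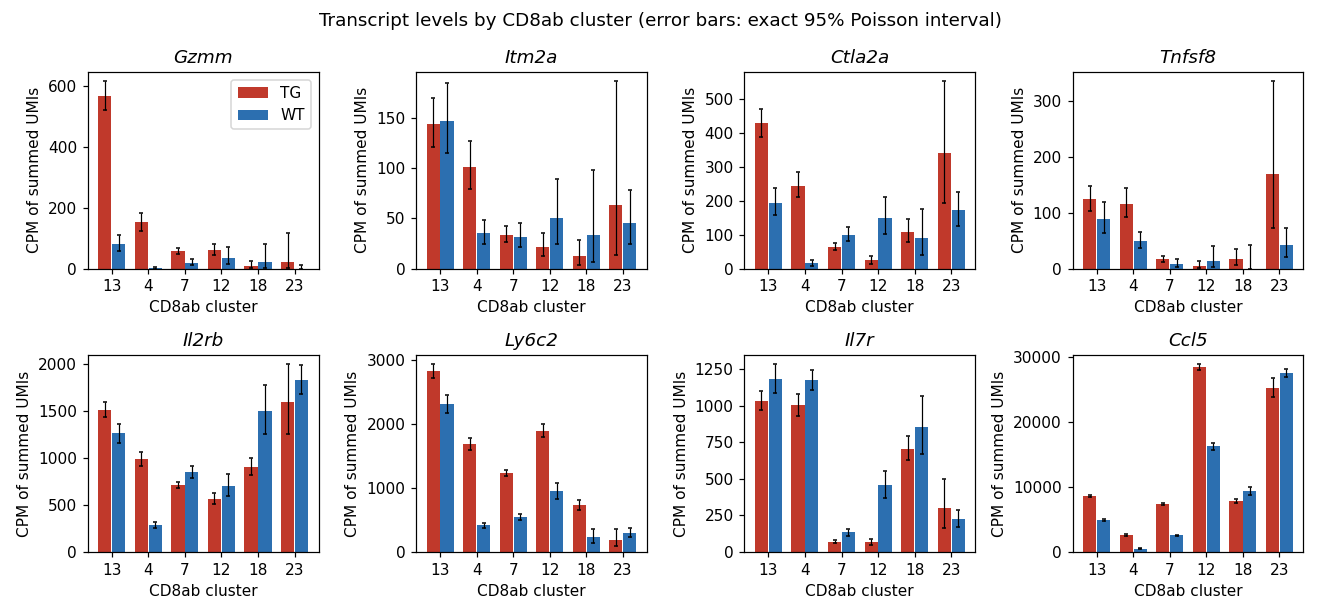
Level of 8 transcripts in the 6 CD8αβ clusters of TG and WT (CPM of summed UMIs, vertical axis; bars carry exact 95% Poisson intervals). Gzmm reached 568 CPM in TG cluster 13 and 80.7 in WT cluster 13, Il7r was about equally high in clusters 13 and 4, and Ly6c2 was highest in cluster 13 in both genotypes.

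The label was checked against 14 genes of central memory and survival. Of these 6 were at least 2-fold higher in TG cluster 13 than in the other TG CD8αβ cells, where 5.26% of 10609 counted genes were at least 2-fold higher and 14.4% at least 2-fold lower. None of the 14 was 2-fold lower. In WT 1 of the 14 was 2-fold higher and 0 were lower, against 4.5% and 12.7% of 9892 genes. The median log2 ratio of the list was 0.97 in TG and 0.50 in WT, and the median over all counted genes was −0.17 and −0.09. Cluster 7 supplied 2418734 of the 4333648 UMIs of the other TG cells, and 938420 of 2581630 in WT. Without it 2.89% of all counted TG genes were 2-fold higher and 7.66% lower, and 4.25% and 7.47% in WT. The gene lists, here and below, were not counted without cluster 7, so in TG their contrasts are in large part against that cluster. With ribosomal protein and mitochondrial genes left out of the totals every ratio was higher by 0.20 in TG and 0.11 in WT, and the TG genes split into 837 higher and 1236 lower in place of 558 and 1532.

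The genes of the IL-15 and IL-7 receptor chains were both high. Il2rb was at 1517 CPM (1441 to 1597) in TG and 1266 (1167 to 1370) in WT cluster 13, against 986 and 289 in cluster 4. Only the small cluster 23, and in WT also cluster 18, held more. Il7r was at 1031 CPM in TG and 1181 in WT, the highest of the 6 clusters in both libraries, with cluster 4 next at 1001 and 1174. The cluster 13 over cluster 4 ratio of Il7r was 0.04 (−0.10 to 0.18) in TG and 0.01 (−0.14 to 0.15) in WT, so these clusters could not be separated by it.

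Ly6c2, which encodes the Ly6C glycoprotein, was highest in cluster 13 of the 6 clusters in both genotypes, at 2817 CPM in TG and 2306 in WT. In WT it stood 2.24 log2 units above the other CD8αβ cells (2.12 to 2.36), and in TG 1.05 units. Bcl2, the survival factor downstream of these cytokines, was at 453 and 372 CPM, with ratios of 1.72 and 0.95. Tcf7 was at 609 and 753 CPM, above the other cells together but below cluster 4 at 924 and 831. Eomes, a T-box factor needed for CD122 expression, was at 193 and 132 CPM, where cluster 13 ranked 2 of the 6 clusters in TG and 4 in WT. Of the same 14 genes, WT cluster 13 also ranked 4 for Cd27 and 5 for Cxcr3, Slamf6 and Cd44. For the remaining genes of the list it ranked 1 to 3 in WT. Il18r1, the receptor chain for IL-18, was at 237 CPM in TG, 2.19 log2 units above the other CD8αβ cells, and at 165 CPM in WT, 0.84 above.

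Cd44 and Ccr7 did not mark the cluster at the transcript level. Cd44 was at 204 CPM in TG and 192 in WT, with ratios to the other CD8αβ cells of −0.12 (−0.35 to 0.10) and 0.10 (−0.24 to 0.42). Ccr7, the receptor that directs cells into lymph nodes, was at 138 CPM in TG and 101 in WT. That was above the other TG cells by 1.57 log2 units but not above the other WT cells (−0.26, −0.73 to 0.17), where the large cluster 4 held 258 CPM. B cells, which make Ccr7 themselves, were at 217 and 265 CPM.

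Of 12 naive genes 4 in TG and 6 in WT were at least 2-fold lower than in cluster 4 and 0 were higher, against 3.35% and 5.07% of all counted genes that were lower. Nsg2 was highest in cluster 13 of the 6 WT clusters. Lef1, the partner of TCF-1, was at 240 CPM in TG and 339 in WT, against 400 and 588 in cluster 4. Satb1, a chromatin organizer of thymocytes and naive cells, was at 464 and 612 CPM, against 597 and 656. Ccr9, the gut-homing receptor of naive CD8 cells, was at 1.03 and 10.3 CPM, against 15.2 and 161 in cluster 4. Igfbp4, which marks naive T cells, was at 21.7 and 18.6 CPM, against 40.2 and 389. Over the 12 naive genes the median ratio to the other CD8αβ cells was 1.00 in TG and −0.06 in WT. Relative to cluster 4 it was −0.75 and −1.10.

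Genes of terminal effector cells were lower than in the other CD8αβ cells together, but not lower than in cluster 4. Of 11 such genes 8 were at least 2-fold lower than in the other CD8αβ cells in TG and 8 in WT, with medians of −2.33 and −1.32, and 0 were 2-fold higher in either. Over all counted genes 14.4% and 12.7% were 2-fold lower. Against cluster 4, 6 of 9 counted genes in TG and 5 of 7 in WT were at least 2-fold higher, and 0 were lower. The medians were 1.22 and 1.42, and 5.76% and 6.44% of all counted genes were 2-fold higher there. Klrg1, an inhibitory receptor of short-lived effector cells, was at 7.22 CPM in TG and 4.14 in WT, against 855 and 168 in cluster 12. Cx3cr1, the fractalkine receptor, was at 11.4 and 14.5 CPM, against 1026 and 237. Gzma, the gene of granzyme A, was at 246 CPM in TG cluster 13, below the 423 CPM found in TG B cells, while TG cluster 12 reached 9724. In WT it was at 70.3 CPM against 189 in B cells, so in neither library was Gzma above the background reference. Gzmb was at 161 and 68.2 CPM, near the B cell levels of 104 and 88.8.

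Of the granule genes, then, Gzmm alone among the 5 granzymes listed was higher than in the other CD8αβ cells by at least 2-fold in both libraries. Gzmk was at 5.16 and 6.20 CPM, which is at or below its B cell level. Nkg7, a granule membrane protein, was at 1202 and 856 CPM, lower than in the other CD8αβ cells by 0.50 and 0.45 log2 units. Prf1, the gene of perforin, was at 116 CPM in TG and 41.4 in WT, and the 14 granule genes had medians of −0.45 and −0.41. Against cluster 4, 5 of 12 counted granule genes were at least 2-fold higher in each library and 0 were lower. Over all counted genes 5.76% in TG and 6.44% in WT were higher.

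The chemokine gene Ccl5 lay between cluster 4 and cluster 12. It was at 8582 CPM in TG and 4897 in WT cluster 13, against 2586 and 511 in cluster 4 and 28509 and 16259 in cluster 12. The B cell levels were 834 and 1122 CPM. Ifng was at 134 and 136 CPM, and differed from the other CD8αβ cells by −0.11 (−0.39 to 0.17) in TG and 0.50 (0.09 to 0.90) in WT.

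Checkpoint receptor genes were low. Pdcd1, encoding PD-1, was at 1.03 CPM in TG and 2.07 in WT, and Lag3 at 3.10 and 8.27. Havcr2 had 0 UMIs in the 177 TG members, a count that allows up to 3.10 CPM, and was at 2.07 CPM in WT. Of 12 checkpoint genes 8 in TG and 9 in WT were at least 2-fold lower than in the other CD8αβ cells, as were 14.4% and 12.7% of all counted genes. Against cluster 4, 2 of 5 counted checkpoint genes in TG and 2 of 6 in WT were at least 2-fold higher, and 0 were lower. Over all counted genes 5.76% and 6.44% were higher there. The antibodies to PD-1 (CD279) and LAG-3 (CD223) gave medians of 0.22 and 0.17 in TG and 0.34 and 0.22 in WT, about as low as on B cells. Cd160 stood at 79.5 and 93.1 CPM, lower than in the other CD8αβ cells by 1.25 log2 units in TG and not separable from them in WT (0.18, −0.32 to 0.65).

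All 15 cell cycle genes were at least 2-fold lower than in the other CD8αβ cells in both libraries, against 14.4% and 12.7% of all counted genes, with medians of −4.23 and −4.47. This contrast rested on cluster 7, whose cells held the cell cycle transcripts and which made up 31.3% of TG and 16.1% of WT CD8αβ cells. Summed over the 15 genes the level was 1062 CPM in TG and 1071 in WT cluster 13, 15002 and 15185 in cluster 7, 1525 and 1521 in cluster 12, and 1050 to 1234 in clusters 4, 18 and 23 of both libraries. B cells held 775 and 851 CPM. Against cluster 4 the medians were 0.31 and −0.30. The 10 genes ranked lowest in both libraries, Nusap1, Pclaf, Spc24, Hmmr, Ccna2, Ckap2l, Ncapg, Prr11, Ccnb1 and Ube2c, were all of this kind. When the ranking was repeated without cluster 7, a choice made after the values were seen, the lowest genes were Gzmk, Gzma, Ccr9, Chst2, Lag3, Gm14085, P2rx7, Gzmb, Maf and Zdhhc2.

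The main ranking left out no CD8αβ cluster. At its upper end stood 10 genes higher in cluster 13 than in the other CD8αβ cells of both libraries. Gpr183, whose product EBI2 responds to oxysterols and positions lymphocytes in lymphoid tissue, led it at 122 CPM in TG and 136 in WT, against 24.5 and 37.2 in the other CD8αβ cells. Ms4a4c was at 188 and 122 CPM, against 46.8 and 33.3. Both are also B cell transcripts, at 141 and 145 CPM for Gpr183 and 236 and 184 for Ms4a4c in the B cells. Bbc3, encoding the proapoptotic BH3 protein PUMA, was at 70.2 and 105 CPM, against 24.5 and 15.1, in the cluster that also held high Bcl2. Samd3 was at 167 and 110 CPM, against 61.1 and 22.1, and in B cells it was at 2.38 and 10.9. Itm2a, Tnfsf8, Ttc28, Gab3, Taf4b and Fgf13 completed the 10.

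Surface CD44 and CD122 were read on the same cells. Protein levels are medians over cells of the centred log ratio (natural log of 1 plus the count over the cell's geometric mean), and the CD44 median was 3.35 (quartiles 3.20 to 3.53) in TG and 3.10 (2.70 to 3.30) in WT cluster 13. In WT cluster 4 it was 1.31, so CD44 protein separated clusters 13 and 4 in WT. In TG it hardly did, since TG cluster 4 was itself at 3.1. The CD44 median was higher in TG cluster 18 at 3.71, and in WT clusters 7, 18 and 23 at 3.43, 3.27 and 3.21. CD44 protein was therefore not highest in cluster 13 in either library. CD122 was 1.47 (1.14 to 1.72) in TG and 0.93 (0.62 to 1.23) in WT, the highest median of the 6 clusters in both. Cluster 4 followed at 1.37 in TG, where the quartiles overlapped widely, and stood at 0.60 in WT.

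Among the integrins, CD49d was lower than on cluster 12 and CD49a lower than on cluster 18. CD49d, the α4 chain, had medians of 1.26 in TG and 1.67 in WT, against 3.25 and 2.86 in cluster 12. CD49a, the collagen-binding α1 chain carried by liver-resident cells, was at 0.67 and 0.45, against 2.95 and 1.76 in cluster 18. CD103 (the αE chain, whose gene Itgae is induced by TGF-β) was at 0.18 and 0.24, whereas WT cluster 4 was at 1.03. TG cluster 4 was at 0.16 and the remaining clusters of both libraries at 0.27 or less, so low CD103 was not particular to cluster 13. The Itgae transcript was at 3.10 CPM in TG and 14.5 in WT cluster 13, and at 91.5 in WT cluster 4. NK1.1 and CD335, which mark natural killer cells, were at 0.75 and 0.17 in TG and 0.51 and 0.17 in WT, inside the range of the other CD8αβ clusters of each library.

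**Figure D3:**
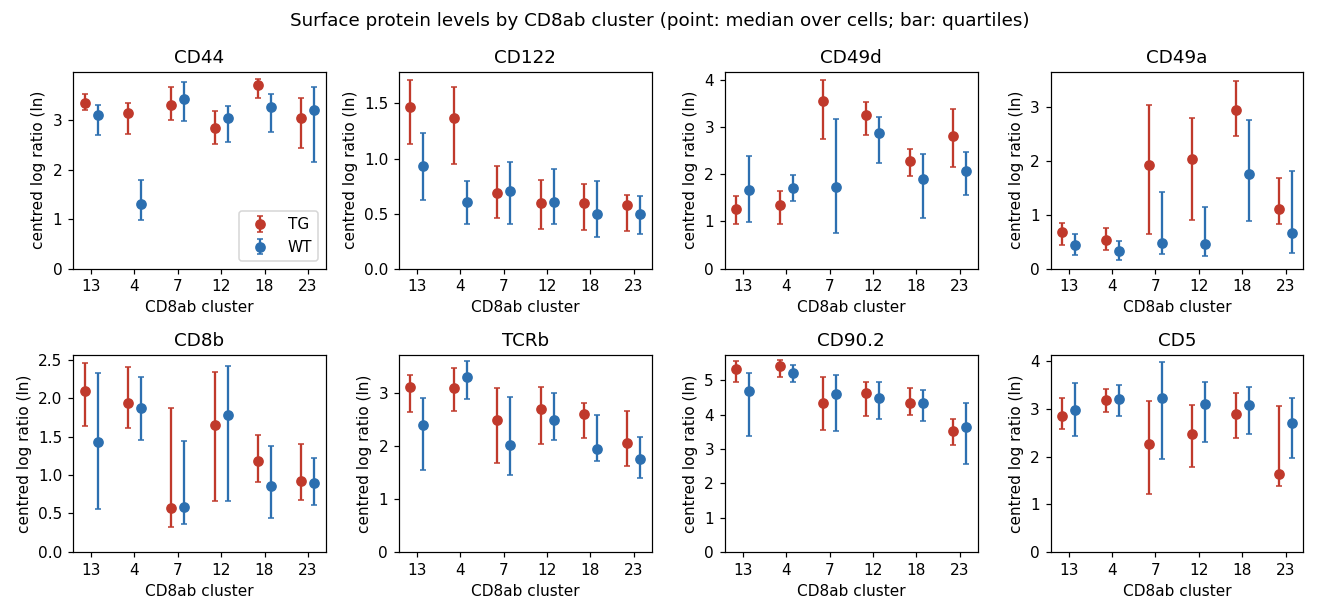
Surface level of 8 proteins in the 6 CD8αβ clusters of TG and WT (centred log ratio, natural log, vertical axis; point, median over cells; bar, quartiles). CD122 was highest in cluster 13, at 1.47 in TG and 0.93 in WT, and the WT quartiles of CD8b, TCRb and CD90.2 in cluster 13 were wider than those of TG.

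Cluster 13 was then compared with cluster 4 alone. Of 8621 counted genes 5.76% were at least 2-fold higher and 3.35% lower in TG, and of 8438 genes 6.44% were higher and 5.07% lower in WT. Since the number of UMIs differs between these profiles, the comparison was repeated on the 4101 genes with at least 50 UMIs over both profiles in each library. There 1.73% passed 2-fold in TG (46 higher, 25 lower) and 3.46% in WT (97 higher, 45 lower). The difference between these 2 shares was not tested, and the median absolute log2 ratio over the same genes was 0.234 in TG and 0.238 in WT.

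Several list genes of memory cells and 1 ranked gene, Samd3, were further above cluster 4 in WT than in TG. Cxcr3, a chemokine receptor of memory and effector cells, was 0.51 log2 units above cluster 4 in TG (0.08 to 0.96) and 3.37 in WT (2.32 to 4.60). Il2rb was 0.62 and 2.13 above, Ly6c2 0.75 and 2.47, Ccl5 1.73 and 3.26, and Samd3 0.56 and 4.84. Cluster 4 itself differed between the libraries: Il2rb there was at 986 CPM in TG and 289 in WT, and Cxcr3 at 94.2 and 8.58. In cluster 13 the same genes were at 1517 and 1266 CPM, and at 134 and 88.9. None of the 14 central memory genes was 2-fold higher than in cluster 4 in TG (0 of 14), and 5 of 14 were in WT, against 5.76% and 6.44% of all counted genes. In each library 1 of the 14 was at least 2-fold lower, against 3.35% and 5.07% of all counted genes.

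Natural killer receptor genes were higher in cluster 13 than in cluster 4. Of 19 such genes 16 could be counted in TG, and 12 of them were at least 2-fold higher in cluster 13, against 5.76% of all counted genes, with a median of 1.49. In WT all 15 counted genes were 2-fold higher, against 6.44%, with a median of 3.44. Klra7, a receptor of the Ly49 family that binds MHC class I, was at 182 CPM (146 to 224) in WT cluster 13 and at 0.953 in WT cluster 4. The WT level was 460 CPM in members with a CD8b level below 1 and 67.2 in the others. In TG it was at 53.7 CPM (40.1 to 70.4) and 24.9. Against all the other CD8αβ cells the same list pointed in opposite directions in the 2 libraries, with 14 of 19 genes 2-fold lower in TG (median −1.59) and 6 higher and 3 lower in WT (median 0.28). Over all counted genes 14.4% were lower in TG, and 4.5% were higher and 12.7% lower in WT. Without cluster 7 among the other cells the TG ratios of Klra1, Klra6 and Klra7 turned to 1.07, 1.30 and 0.75, and without members of low CD8b the WT median was −0.12.

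The WT members were not uniform in CD8β, the surface protein that names the lineage. CD8b had a median of 1.43 in WT cluster 13 with quartiles of 0.56 and 2.32, against 2.10 with quartiles of 1.64 and 2.46 in TG. A level below 1, a limit set after the spread was seen, was found in 54 of 138 WT members (39.1%, 30.9 to 47.8%) and in 21 of 177 TG members (11.9%, 7.5 to 17.6%). In cluster 4 the share below 1 was 8.54% in WT and 7.59% in TG, and in cluster 12 it was 32.9% and 33.7%. In clusters 7, 18 and 23 it was 65.9%, 59.5% and 53.9% in WT and 64.3%, 33.9% and 60% in TG, so a low CD8b level was not particular to the WT members of cluster 13. Within 0.2 of the limit lay 9 WT and 10 TG cells. B cells gave a CD8b median of 1.70 in WT and 1.63 in TG, so a high value of this antibody does not by itself show CD8β, and the transcripts were read beside it.

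The CD8 transcripts followed the protein. In WT members below 1, Cd8b1 was at 99.0 CPM, with a UMI in 9 of 54 cells, and in WT members at 1 or above it was at 953 CPM, with a UMI in 70 of 84 cells. Cd8a was at 127 and 640 CPM. Trac, the constant segment of the T cell receptor α chain, was at 1011 and 1274 CPM, and Cd3e at 700 and 590, so the cells with little CD8 still held T cell receptor transcripts. CD90.2 and TCRβ protein were lower on them, with medians of 3.20 against 5.14 and of 1.5 against 2.82. Trdc, of the δ chain, was at 290 CPM with a UMI in 9 of the 54 cells, and at 20.5 CPM in the others. For these WT cells the name CD8αβ is not borne out by Cd8b1 or CD8b.

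Some of the natural killer receptor genes were at higher levels in the same 54 cells. Fcer1g, a signalling adaptor of innate lymphocytes, was at 389 CPM in them and 90.6 CPM in the 84 others. Klrd1, encoding CD94, was at 714 and 295 CPM. Klrc1 went the other way at 21.2 and 70.2 CPM, from 3 and 24 UMIs. Klra3 was at 21.2 and 52.6 CPM from 3 and 18 UMIs, with overlapping intervals. Klra4 was at 0 and 8.77 CPM from 0 and 3 UMIs, too few to give a direction. Other genes differed too. Ikzf2, encoding the transcription factor Helios, was at 566 CPM with a UMI in 30 of 54 cells, and at 78.9 CPM with a UMI in 10 of 84 of the others. Xcl1, the chemokine gene for XCR1-bearing dendritic cells, was at 325 and 84.8 CPM, and Itga4, the gene of CD49d, at 1082 and 269. Gzmm gave 1 UMI in the 54 cells and 38 in the 84 others.

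Il2rb, Ly6c2 and Il7r were high in both kinds of WT member. Il2rb was at 1562 CPM below the limit and 1143 above it, Ly6c2 at 2411 and 2262, and Il7r at 1329 and 1120. CD44 protein was 2.81 and 3.17, and CD122 protein 0.72 and 1.09. The 21 TG cells below the limit resembled the WT ones in some of these genes. They held Trdc at 241 CPM (6 of 21 cells), Fcer1g at 301 and Klrd1 at 342, but Ikzf2 at 60.3 CPM and Cd8b1 at 512. The median UMI count per cell was 2558 below and 3935.5 above the limit in WT, and 4824 and 5521 in TG.

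The cluster was also split by Ikzf2, again a split chosen after its values were seen. A UMI of Ikzf2 was found in 40 of 138 WT members and 13 of 177 TG members. Of the 40 WT cells 31 also held a UMI of a Klra gene (77.5%), and of the 98 WT cells without Ikzf2 25 did (25.5%). In TG 6 of the 13 and 44 of the 164 others (26.8%) held one. CD8b protein had a median of 0.59 in the 40 WT cells and 2.02 in the 98 others, and CD49d 2.25 and 1.38. Gzmm had 0 UMIs among the 123849 of the 40 WT cells, which allows up to 24.2 CPM. The TG cells with Ikzf2 differed from these. Their CD8b median was 1.60, against 2.13 in the other TG members, and they held Gzmm at 440 CPM, against 578, and a Cd8b1 UMI in 9 of 13 cells.

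**Figure D4:**
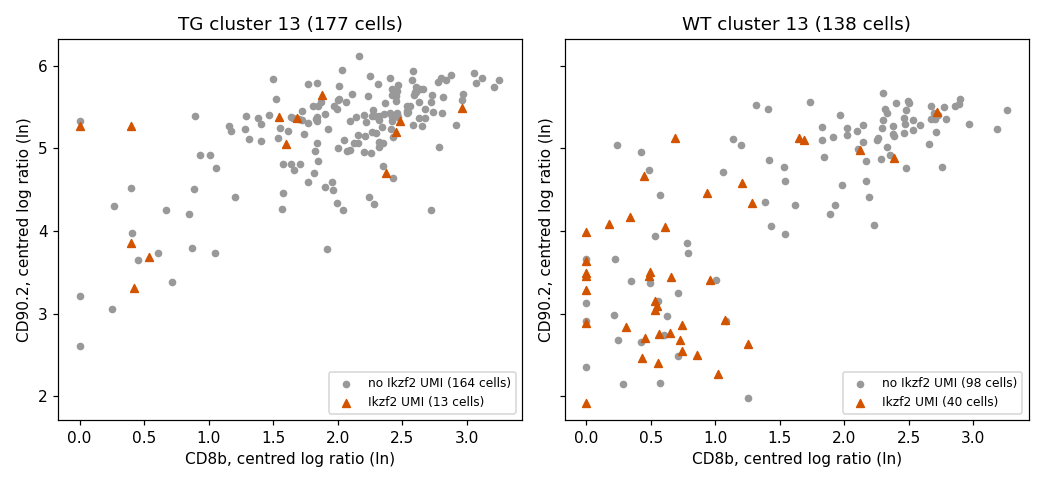
CD90.2 against CD8b surface level (centred log ratio, natural log) of every cluster 13 cell, TG on the left (177 cells) and WT on the right (138 cells); triangles mark cells with an Ikzf2 UMI. TG cells lie mostly at high CD8b and high CD90.2, while WT cells form a second group at low values of both, where 30 of the 40 WT cells with Ikzf2 are below the CD8b limit of 1.

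The near equality of cluster 13 in TG and WT did not hold when cells with low CD8b were left out. With only the cluster 13 cells below the limit left out, it held 156 of 999 TG CD8αβ cells (15.6%, 13.4 to 18%). The WT share became 84 of 765 (11%, 8.85 to 13.4%), and the shares differed by 4.64 percentage points (1.42 to 7.76). That gap follows from the choice itself, which took out 54 WT and 21 TG members and left such cells in the other clusters. With cells below the CD8b limit left out of every CD8αβ cluster, cluster 13 held 156 of the 651 remaining TG cells (24.0%, 20.7 to 27.4%). In WT it held 84 of 560 (15.0%, 12.1 to 18.2%). The difference was then 8.96 percentage points (4.50 to 13.3), against 0.503 in all cells. Of the 369 TG cells left out in this way 348 lay outside cluster 13, and of the 259 WT cells 205 did, so this value rests mostly on the other clusters. The values between TG and WT cluster 13 are given in all members and, for some of the genes, also without the low CD8b cells.

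Between TG and WT cluster 13, 5.89% of 8408 counted genes were at least 2-fold higher in TG and 6.3% at least 2-fold lower. With library totals scaled by TMM factors the counts were 565 higher and 381 lower in place of 495 and 530, so the balance of the directions depended on the scaling. The 14 central memory genes went both ways, with an interval above 0 for 5 and below 0 for 5. Their median log2 ratio was 0.10, with 0 at least 2-fold higher and 1, Id3, lower at 41.3 CPM in TG and 108 in WT. Il2rb differed by 0.26, Ly6c2 by 0.29, Bcl2 by 0.28 and Cd27 by 0.12.

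Genes higher in TG were led by S100a6, a calcium-binding protein of activated and memory T cells, at 871 CPM in TG and 112 in WT, a log2 ratio of 2.96 (2.57 to 3.39). In B cells the same gene differed by 0.56. Of the 6 clusters, cluster 13 ranked 3 for S100a6 in TG and 5 in WT. Gzmm followed at 2.82, a difference that was larger still in cluster 4 and so not particular to cluster 13. Without the low CD8b cells of cluster 13 it was still higher by 2.46 (1.98 to 2.97). Ccr2, the receptor for CCL2, was at 155 and 31.0 CPM, a ratio of 2.32 that stayed at 2.12 without those cells, while in B cells it went the other way (−2.17). Fcgrt, the neonatal Fc receptor, was at 189 and 45.5 CPM. F2r, the thrombin receptor PAR1, was at 191 and 49.6 CPM, and Lpin1, a phosphatidate phosphatase, at 237 and 60.0. Neither F2r nor Lpin1 was higher in TG than in WT B cells. A comparison with B cells does not show whether such differences were particular to cluster 13 among the CD8αβ clusters.

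Other genes of this ranking differed in the same direction in B cells. Rps10, a ribosomal protein gene, was higher in TG cluster 13 by 2.12 and in TG B cells by 1.48, and Gm11361, annotated as protein coding, by 1.82 and 1.96. Ly6a, encoding Sca-1, was higher by 1.80 and 1.04. H2-Aa, an MHC class II gene, was at 143 CPM in TG and 28.9 in WT members, against 5539 and 4052 in B cells, and more TG than WT members were B and T mixed cells (13% and 2.17%), as in all cells of the libraries (13% and 5.89%). The neutrophil genes S100a8 and S100a9 were at 91.9 and 155 CPM in TG and 37.2 and 49.6 in WT members, a difference that B cells showed as well (0.89 and 1.04). The CD4 gene Cd4, the only 1 of 3 CD4 T cell markers with enough UMIs to be counted, was at 74.3 CPM in TG and 16.5 in WT members, a log2 ratio of 2.17 (1.11 to 3.43), and at 25.3 and 37.0 CPM in B cells. Cd40lg and Foxp3 had 2 UMIs each in TG and 0 in WT members, and the 3 summed to 78.4 and 16.5 CPM. Among members at or above the CD8b limit a Cd4 UMI was found in 53 of 156 TG and 3 of 84 WT cells. CD4 protein had medians of 1.42 and 0.71 in all members, 0.80 and 0.35 on B cells and 3.71 and 3.50 on CD4 T cells. The part of RNA from other cells in these ratios was not tested.

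Of 8 terminal effector genes that could be counted 5 were at least 2-fold higher in TG and 1 lower, against 5.89% and 6.3% of all counted genes. Their median was 1.21, beside a median of −0.05 over all counted genes. Summed over the list the level was 1262 CPM in TG and 544 in WT members. It was higher in TG in every other CD8αβ cluster too, as in cluster 12 at 15450 and 3146 CPM. B cells held 769 and 559 CPM, so a higher level in TG was not particular to cluster 13. Id2 was at 624 and 273 CPM, a ratio of 1.19 (0.92 to 1.48), and at 1.55 without the low CD8b cells, while in B cells it was −0.81. Prf1 was higher by 1.48 (0.79 to 2.25) and Tbx21, encoding T-bet, by 0.94 (0.35 to 1.57). Gzma was higher by 1.80, but it was below its B cell level in both libraries and higher in TG B cells too, by 1.16. Ccl5 was higher in TG by 0.81, and by 1.31 without the low CD8b cells.

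**Figure D5:**
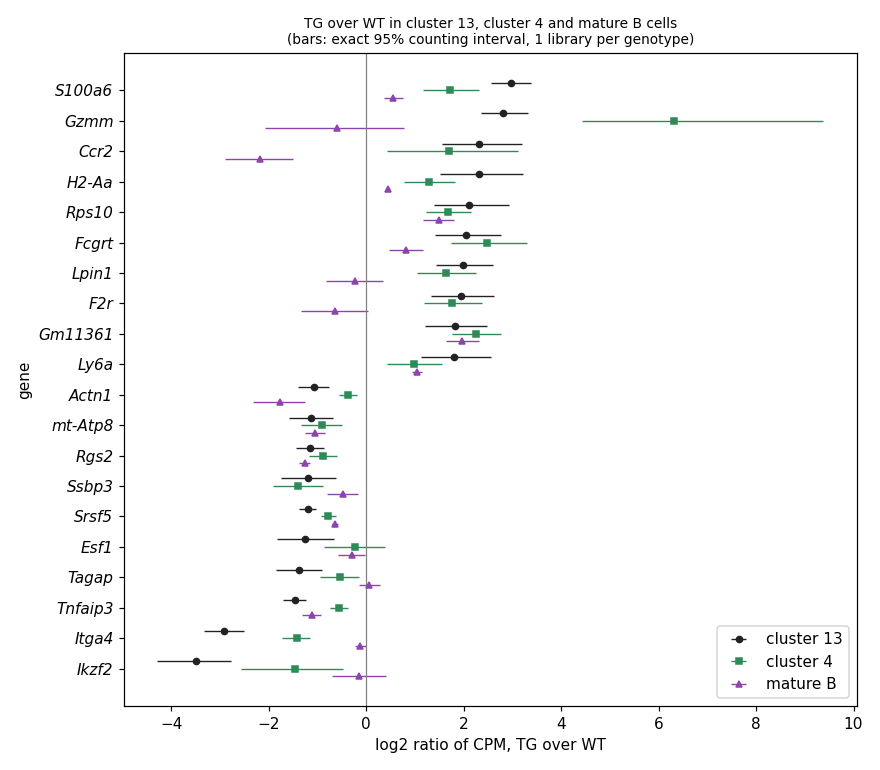
Log2 ratio of TG over WT CPM (horizontal axis, exact 95% counting intervals) for the 20 genes ranked highest and lowest, in cluster 13, cluster 4 and mature B cells. S100a6 and Ccr2 stood at 2.96 and 2.32 in cluster 13 and at 0.56 and −2.17 in B cells, whereas Rps10, Gm11361, Rgs2 and mt-Atp8 differed in the same direction in B cells.

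Genes lower in TG were led by Ikzf2, at 19.6 CPM in TG and 221 in WT, and by Itga4, at 67.1 and 507. Without the low CD8b cells Ikzf2 was 15.0 and 78.9 CPM, a ratio of −2.40 (−3.48 to −1.40) in place of −3.50. Itga4 was 47.2 and 269 CPM, a ratio of −2.51 (−3.08 to −1.97) in place of −2.92, and it was lower in TG cluster 4 as well (−1.43). The protein went the same way, with CD49d medians of 1.26 in TG and 1.67 in WT. Among cells at or above the CD8b limit the medians were 1.23 and 1.31, so on those cells the protein differed by far less than the transcript.

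Tnfaip3, which encodes the NF-κB inhibitor A20, was at 264 CPM in TG and 728 in WT, a ratio of −1.46 that was −1.45 without the low CD8b cells and −1.12 in B cells. Tagap, a GTPase-activating protein of T cells, was lower by 1.39, and in B cells it did not differ (0.06, −0.15 to 0.28). Actn1 was at 173 and 366 CPM in cluster 13 and at 11.6 and 39.5 in B cells. Rgs2 and mt-Atp8 were lower by 1.15 and 1.14 in cluster 13 and by 1.26 and 1.05 in B cells. Srsf5, Esf1 and Ssbp3 completed the 10, and the interval of Ssbp3 reached 0 without the low CD8b cells (−0.66, −1.33 to 0.04).

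Natural killer receptor genes differed in both directions between TG and WT, with 8 of 17 counted genes at least 2-fold lower in TG and 3 higher, against 6.3% and 5.89% of all counted genes, and a median of −0.86. Without the low CD8b cells the median was −0.084. The log2 ratio was −1.76 (−2.29 to −1.25) for Klra7 and −1.03 (−1.32 to −0.74) for Klrd1 in all members. Without the low CD8b cells these were −0.82 (−1.64 to 0.01) and −0.65 (−1.01 to −0.27). Fcer1g went from −1.0 to −0.49 (−1.15 to 0.19), and Xcl1 from −0.91 to 0.03 (−0.61 to 0.70). Klra6 stayed lower at −1.83 (−2.89 to −0.81). Klrc1, encoding NKG2A, was higher in TG, at 122 and 55.8 CPM. Klra genes are close in sequence, and reads may be divided among them in counting.

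The transgene acts on the TGF-β receptor, and its pathway genes were read for that reason. Tgfbr2 was at 271 CPM in TG and 147 in WT members, a ratio of 0.89 (0.50 to 1.29), and in B cells it was −0.09 (−0.23 to 0.06). Whether reads of the human transgene are counted with the mouse gene was not tested. Of 12 counted pathway genes 0 were at least 2-fold higher in TG and 3 were lower, against 5.89% and 6.3% of all counted genes, with a median of 0.02. Smad7, an inhibitor induced by the pathway, differed by −0.11 (−0.51 to 0.29). Itgae was lower at 3.10 and 14.5 CPM, from 3 and 7 UMIs.

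Of 23 interferon-stimulated genes that could be counted 5 were at least 2-fold higher in TG and 0 lower, against 5.89% and 6.3% of all counted genes, with a median of 0.33. The interval lay above 0 for 6 of them and below 0 for 1. Summed over the list the level was 3068 CPM in TG and 2492 in WT members, and 2784 and 1905 CPM in B cells, where the gap was larger. Epsti1 was at 525 and 318 CPM, a ratio of 0.72 (0.46 to 0.99). Gbp2 was at 61.9 and 26.9 CPM, a ratio of 1.2, and 1.68 in B cells.

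The T cell receptor β genes were spread over many V segments. In TG members 59 UMIs of Trbv segments in 46 cells fell on 16 of the 17 segments in the table, the most frequent, Trbv16 and Trbv2, holding 18.6% each. In WT members 17 UMIs in 15 cells fell on 11 segments, led by Trbv12-2 at 23.5%. These UMIs cover 46 of 177 and 15 of 138 members, and an expanded receptor could not be detected at this depth.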

How the data were processed

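CD45+ liver cells were profiled with the BD Rhapsody whole transcriptome assay and antibody-derived tags. The authors aligned reads to mm10 with STAR in the BD Rhapsody pipeline, filtered cells and genes, joined the 2 libraries by CCA in Seurat, and clustered. The deposited values used here were UMI counts per cell for 13528 genes and antibody counts for 49 antibodies, the deposited natural log (centred) antibody values, and the deposited percent of mitochondrial UMIs. Genes at 0 in every cell of a genotype (630 in TG, 365 in WT) were left out of TG over WT counts. Values of 29 antibodies are given, and 1 surface protein and 1 transcript are not reported here. Cell type names and cluster numbers were the authors'.

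Counts were summed per genotype and cluster and expressed as CPM. Ratios used Python 3.11.15, numpy 2.4.6 and scipy 1.17.1, and TMM factors came from edgeR 4.0.16, with no model fitted. A gene was counted with at least 10 UMIs over both profiles and called 2-fold after adding 0.5 UMI to each profile. Named genes were the 10 highest and 10 lowest in both libraries (cluster 13 over other CD8αβ cells, ranked by the smaller of the 2 ratios) and between TG and WT, among genes with at least 100 UMIs (for TG over WT, 10 in each profile), no more than 25% of the higher profile's UMIs in 3 cells, and a sign kept under TMM scaling, totals without ribosomal protein and mitochondrial genes, and equal weight per cell. Antigen receptor segments, immunoglobulin, haemoglobin, Xist and Y-linked genes were left out of the ranking, and any list gene could be named. Doublets were called by Scrublet (scanpy 1.11.5, expected rate 5%) and kept in the main values. Gene positions and names were from GENCODE, where 13467 of 13528 symbols matched. The code was checked on simulated data. The members and gene lists were chosen with earlier results of these data known.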

Additional observations from a re-analysis of the deposited data

Results flagged for a closer look

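Among the list and ranked genes, 9 were at least 2-fold higher in cluster 13 than in the other CD8αβ cells in one library and at least 2-fold lower in the other. Over all counted genes 5.26% were 2-fold higher and 14.4% lower in TG, and 4.5% and 12.7% in WT. Opposite calls were not counted over all genes, so whether 9 is many or few cannot be told. In each case the difference between the libraries was not tested. Dapl1, a naive T cell transcript, had a log2 ratio of 1.58 in TG and −1.40 in WT, a difference of 2.98. Ccr2 had 1.17 and −2.05, a difference of 3.21. Ikzf2 had −2.33 and 1.71, a difference of −4.04, and Fcer1g −1.91 and 1.42, a difference of −3.34. For the Klra genes the differences were −6.13 for Klra1, −4.19 for Klra3, −6.45 for Klra6, −5.24 for Klra7 and −4.68 for Klra9. With cluster 7 left out of the other CD8αβ cells, TG Klra1, Klra6 and Klra7 turned to 1.07, 1.30 and 0.75, so their low values in TG rested on that cluster. In WT, Ikzf2, Fcer1g and Klra9 were at 566, 389 and 106 CPM in members with a CD8b level below 1. They were at 78.9, 90.6 and 17.5 CPM in the others, so their high WT values rested largely on the low CD8b cells. Klra1, Klra6 and Klra7 were also lower in the others, and Klra3 was not.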

How the results depend on the processing

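No paired analysis was possible because each genotype had 1 library. No call rested on a test, and leaving out a replicate was not possible.

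The share difference of 0.503 percentage points between TG and WT became 5.0 with all T cells as the denominator. It was 4.64 without the cluster 13 cells whose CD8b level was below 1, a gap that this choice itself makes. With such cells left out of every cluster it was 8.96. It stayed inside its interval with CD8αα T cells added to the denominator, where it was −1.25, and without Ikzf2 cells, where it was 3.71. The settings on CD8b and Ikzf2 and the ranking without cluster 7 were chosen after seeing the data.

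Counts of 2-fold genes followed the minimum count. For cluster 13 over the other CD8αβ cells, 558 higher and 1532 lower TG genes became 222 and 931 with at least 50 UMIs, and 277 and 735 without cluster 7, and 1084 were higher with no minimum. The 445 higher and 1255 lower WT genes became 118 and 579 with at least 50 UMIs, 1126 were higher with no minimum, and 682 were lower without cluster 7. For TG over WT, 495 and 530 became 1198 and 1603 with no minimum and 83 and 72 with at least 50 UMIs. Of 85 list medians 73 kept their sign without the low CD8b cells, and 77 without ribosomal protein and mitochondrial genes in the totals. Cluster 13 had a higher median than the other CD8αβ cells in 24 pairs of an antibody and a genotype, and in 13 when antibody levels were shares of summed counts.

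Without cluster 7 the ratio to the other CD8αβ cells turned positive for Klra1 (1.07), Klra6 (1.30), Klra7 (0.75), Ccna2 (0.090), Ckap2l (0.25) and Foxp3 (0.98, from 2 UMIs) in TG, and for Hmmr (0.18) and Ccna2 (0.54) in WT. A further 97 ratios of named genes left their counting interval and 103 stayed inside. With each cell thinned to 1000 UMIs, 86 ratios left the interval and 205 stayed inside. With equal weight for each of the other clusters, 62 left it and 146 stayed inside. WT Ikzf2 turned to −5.61 without the cells that held it, as that choice fixes. With the B cell ratio subtracted, TG over WT changed sign for Actn1 (0.68), Rgs2 (0.11), Gbp2 (−0.51) and Gm11361 (−0.16). It left the counting interval for 52 more named genes and stayed inside for 27. Depth was lower in WT, which limits low genes there.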
